A study of Mus musculus with 12 samples.

Results

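The receptors of the glial cell line-derived neurotrophic factor (GDNF) family were followed in single cells of the developing mouse cochlea. The group holds 7 of the 24489 genes of the count table and was chosen by name: the co-receptors Gfra1, Gfra2, Gfra3 and Gfra4, the receptor tyrosine kinase Ret, and the ligands Gdnf and Nrtn (neurturin). A ligand of this family binds its preferred GPI-anchored GFRα co-receptor, and the complex engages RET, which carries the kinase domain. Gfra1 is the preferred co-receptor of GDNF, Gfra2 of neurturin, Gfra3 of artemin and Gfra4 of persephin, and GFRα proteins can also work without RET, for example through the adhesion molecule NCAM1. In the peripheral nervous system the family is known for its part in the survival and differentiation of sensory, sympathetic and enteric neurons.

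The cells were sorted as tdTomato-positive from dissociated spiral ganglion tissue of the cochlea and sequenced with Smart-seq2, which reads full-length polyadenylated RNA without molecular identifiers. The 12 plates of 384 wells covered E14.5 (2 plates), E15.5 (2), E16.5 (3), E17.5 (1), E18.5 (2) and P3 (2), and a plate was the replicate in every test. Labels gave PVcre;Ai14, a Cre under parvalbumin control with a tdTomato reporter, for 11 plates and TrkCcre for E14.5 replicate 2, whereas the study's methods give Ntrk3Cre;R26tdTOM for the E14.5 samples, so that the driver of E14.5 replicate 1 was uncertain and stage alone was used. No plate carried a mutation or a treatment, several animals were pooled in a plate, and the modiolus was taken at E14.5 and E15.5. The sort was meant to take cells in which the driver had been active. The study regarded its mesenchyme cluster as a likely contaminant of the sort and removed it. It also describes glial contamination among its neuron clusters. Whether the driver had been active in the glia-like and OM-like cells used here was not tested. The P3 plates came from an earlier study. The P3 plates and the E18.5 plates each formed a plate series of their own, and the sorting facility changed at E18.5, so stage cannot be told apart from plate series where E18.5 or P3 is compared with another stage. E16.5 replicates 1 and 2 formed a further plate series, while replicate 3 shared that of the E14.5, E15.5 and E17.5 plates. The step from E15.5 to E16.5 is therefore partly mixed with plate series. The step from E14.5 to E15.5 is mixed with the Cre driver. This holds for E14.5 replicate 2 by the labels and for both E14.5 plates by the study's methods. Stage and driver cannot be fully told apart there.

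Of 4608 wells, 4227 cells were kept. Clustering without the 7 genes and their pathway, with names from marker lists, gave 2246 spiral ganglion neuron (SGN)-like, 1101 glia-like, 574 otic mesenchyme (OM)-like and 99 hair cell (HC)-like cells, and 207 cells stayed unnamed. Among the neurons 369 took no class name, and 123 of E17.5 and E18.5, named Ia or Ia/Ib/II-like, were kept apart from the Ia-like cells. Plates held 80997594 to 303906928 counts, with medians of 232470 to 1092400 counts per cell. Levels are given as CPM, the share of all gene counts scaled to 1e6, from counts summed over the cells of a class in a plate. The SGN markers (Tubb3, Elavl3, Snap25 and 7 others) summed to 13827 to 17589 CPM in SGN-like cells, where the glial markers (among them Sox10 and Erbb3) summed to 26.9 to 3106 CPM. Glial RNA in the neurons differed with stage and plate series: 6.56% of SGN-like cells in E14.5 replicate 2 had a Sox10 count, against 58.6% and 66.4% at E18.5 and 71.5% and 82.4% at P3. Glia-like and OM-like cells of E16.5 replicates 1 and 2 were few (18, 9, 5 and 10) and carried SGN markers at 6745 to 9369 CPM, against 616 to 740 CPM in the other glia-like and 108 to 283 CPM in the other OM-like sums. In the HC-like cells of E15.5 replicate 2 the HC markers reached only 510 CPM, with 3 of the 10 at 0.

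The 7 genes lie on 7 chromosomes (GRCm38, GENCODE vM21). Gfra1 lies at chr19:58235604-58455909 on the minus strand, and Gfra2 lies at chr14:70890120-70979838 on the plus strand. Gfra3 lies at chr18:34689898-34720387 and Gfra4 at chr2:131039632-131043088, both on the minus strand. Ret lies at chr6:118151745-118197718 on the minus strand, Gdnf at chr15:7810846-7837575 on the plus strand and Nrtn at chr17:56751325-56757530 on the minus strand. Gfra1 overlaps the antisense gene Gm16277, which is not a column of the table, and the strand setting of the counting is not given in the sources used here, so reads of the 2 genes cannot be told apart. Gfra4 overlaps the miRNA gene Mir6973b on its own strand, which is a column of the table. Between-gene comparisons below use CPM per kb of exon, from exon lengths of 1023 bases (Nrtn) to 6763 bases (Ret).

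Gfra1 was the co-receptor with the highest level per length in embryonic SGN-like cells, and Gfra4 was the highest after birth. At E15.5 the levels per kb were 64.4 ± 3.20 CPM for Gfra1, 7.27 ± 1.17 for Gfra4 and 5.24 ± 3.92 for Gfra2 (SD, n = 2 plates), and the last 2 did not differ beyond their spread. At E18.5 Gfra1 was at 26.6 ± 1.33, Gfra2 at 21.9 ± 2.45 and Gfra4 at 15.6 ± 0.192 CPM per kb (SD, n = 2). At P3 the order was turned over, with Gfra4 at 26.7 ± 0.928, Gfra2 at 7.81 ± 0.940 and Gfra1 at 3.15 ± 0.122 CPM per kb (SD, n = 2). Ret ranged from 0.140 CPM per kb at E17.5 (1 plate) to 2.82 ± 2.46 at E14.5, where it did not differ beyond its spread from Gfra2 (1.91 ± 0.203) or Gfra4 (4.49 ± 1.73), and Nrtn ranged from 0.742 (E17.5) to 1.92 ± 0.966 CPM per kb (E15.5).

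**Figure D1:**
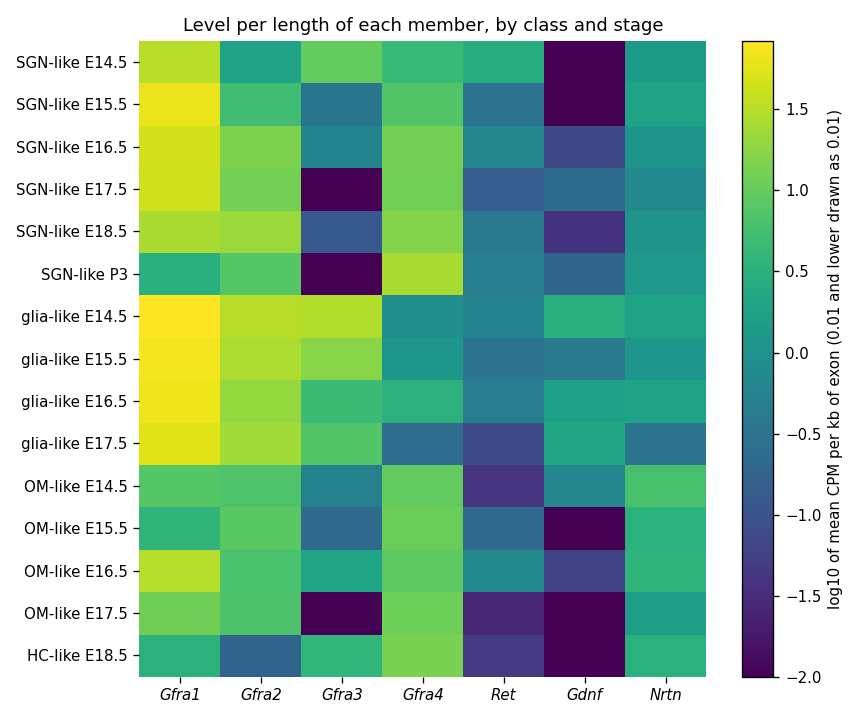
Mean CPM per kb of exon, on a log10 colour scale, of each of the 7 genes (one axis) in every cell class and stage with enough cells (other axis), averaged over plates. In SGN-like cells Gfra1 has the highest value at E15.5 (64.4) and Gfra4 at P3 (26.7), while glia-like cells are highest in Gfra1 at every stage.

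In SGN-like cells Gfra1, the GDNF co-receptor, rose to a peak at E15.5 and fell to its lowest level at P3. Its CPM was 159.6 and 195 in the plates of E14.5, 365 and 340.3 at E15.5, 208, 234 and 298 at E16.5, 240.2 at E17.5, 150.6 and 140.3 at E18.5, and 17.7 and 16.8 at P3. Plates of neighbouring stages did not overlap, apart from the E17.5 plate, which lay within the E16.5 range. From E14.5 to E15.5 Gfra1 rose by 0.97 on the log2 scale (SE 0.16, adjusted p = 0.0075), the only call of edgeR among 7 members where 5.96% of all genes were called, whereas DESeq2 called Ret, Gfra2 and Gfra3 too. Without E15.5 replicate 1 the change was 0.90 and missed the threshold (adjusted p = 0.0502). This step is also mixed with the Cre driver, as given above. From E15.5 to E16.5 none of the 7 members was called by edgeR, where 1.82% of all genes were, although 4 had an unadjusted p under 0.05 and DESeq2 called 3 (Gfra1, Gfra2 and Gfra4).

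Gfra1 then fell by 0.75 on the log2 scale from E16.5 to E18.5 (SE 0.15, adjusted p = 0.0186), again the only member called, with 4.77% of all genes called. This call was lost without E18.5 replicate 1 (log2 change -0.82, adjusted p = 0.148) or replicate 2 (-0.73, adjusted p = 0.199), and among neurons without a Sox10 count (-0.62, adjusted p = 0.0675). The fall from E18.5 to P3 was larger, -2.80 on the log2 scale (SE 0.17, adjusted p = 1.04e-05), and kept its call in every alternative run. In that comparison 24.6% of all genes and 3 of the 7 members were called. A stage sum takes all neurons together, and the part of the mix of neuron classes in any stage step was not tested. Within the unspecialized-like and Ic-like cells described below, the Gfra1 ranges of E16.5 and E18.5 overlapped, while Ia/Ib/II-like cells lay lower at E18.5. Type I-like and II-like cells lay lower at P3 than at E18.5. The naming at P3 had no unspecialized or Ia/Ib/II class. The share of neurons with a Gfra1 count was 86.3% ± 1.54 at E15.5 and 31.0% ± 3.64 at P3 (SD, n = 2), although P3 cells were the deepest. After every cell was thinned to 100000 counts the shares were 85.7% and 23.7%.

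Gfra4, the persephin co-receptor, took the opposite course. Its CPM in SGN-like cells was 12.4 and 7.07 at E14.5, 13.9 and 17.52 at E15.5, 28.2, 26.3 and 29.1 at E16.5, 26.8 at E17.5, 33.5 and 34.1 at E18.5, and 56.3 and 59.1 at P3. Every plate from E15.5 on lay above every plate of the stage before it, again with E17.5 inside the E16.5 range. Gfra4 rose by 1.04 on the log2 scale from E18.5 to P3 (SE 0.24, adjusted p = 0.0095). The size of this rise hardly moved when a plate was left out (1.01 to 1.06), yet the call was lost without P3 replicate 2 (adjusted p = 0.0569), E18.5 replicate 1 (0.0803) or E18.5 replicate 2 (0.0658). The share of neurons with a Gfra4 count went from 13.1% ± 0.0504 at E14.5 to 91.6% ± 3.94 at P3 (SD, n = 2), or from 11.7% to 85.7% at 100000 counts per cell.

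Gfra2, the neurturin co-receptor, was low at E14.5 and highest at E18.5. Plate values were 6.24 and 7.26 CPM at E14.5, 28.4 and 8.71 at E15.5, 59.1, 62.0 and 36.6 at E16.5, 44.9 at E17.5, 83.8 and 71.5 at E18.5, and 30.01 and 25.3 at P3. Both E18.5 plates lay above all others, but no step between neighbouring stages passed the threshold of edgeR. DESeq2 called each step except that from E16.5 to E18.5. The log2 differences were 1.44 (E15.5 against E14.5, adjusted p = 0.0973), 1.53 (E16.5 against E15.5, adjusted p = 0.0999), 0.57 (E18.5 against E16.5, adjusted p = 0.525) and -1.22 (P3 against E18.5, adjusted p = 0.063). E15.5 replicate 1 moved the first of them most: without that plate the difference was 0.33 (adjusted p = 0.632), and without E15.5 replicate 2 it was 2.05 (adjusted p = 0.0107). The same plates moved the second, to 2.62 (adjusted p = 0.0259) without E15.5 replicate 1 and to 0.89 (adjusted p = 0.221) without replicate 2.

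**Figure D2:**
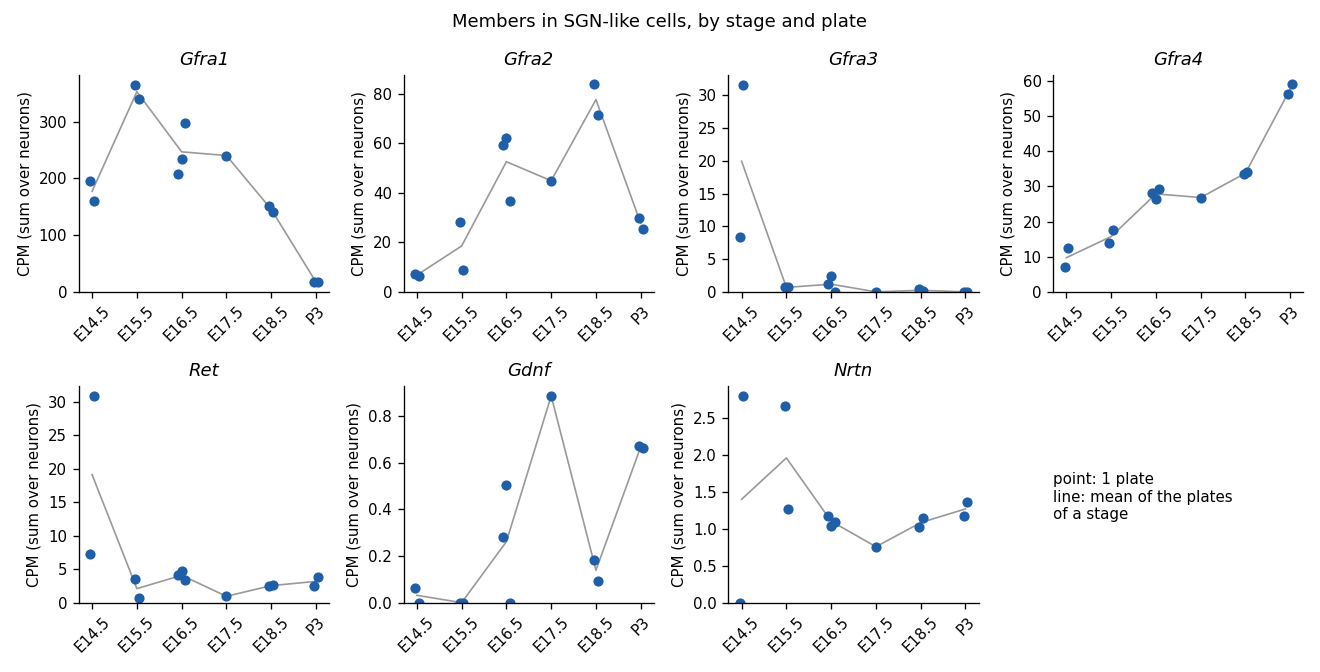
CPM of the members (vertical axis of each panel, from 0) in SGN-like cells at each stage (horizontal axis), with 1 point per plate and the mean of the plates. Gfra1 peaks in the E15.5 plates (365 and 340.3 CPM) and is at 17.7 and 16.8 CPM at P3, while Gfra4 is highest at P3 (56.3 and 59.1 CPM).

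Gfra3, the artemin co-receptor, was close to absent from most SGN-like cells. It stood at 31.5 and 8.33 CPM in the E14.5 plates, at 0 to 2.36 CPM in the 8 plates from E15.5 to E18.5, and at 0 in both P3 plates. Most of the E14.5 signal came from 4 neurons with a count of Prdm12, a transcription factor of nociceptive sensory neurons, which were singled out after their values were seen. These 4 cells held 617 of the 683 Gfra3 counts of all E14.5 SGN-like cells (90.3%), had Th, which encodes tyrosine hydroxylase, at 3047 CPM, and had no count of the SGN genes Ntrk3 and Gata3 or of the other 6 members. Without them the E14.5 plates were at 3.98 and 0 CPM. The difference between E15.5 and E14.5 was -4.90 on the log2 scale (adjusted p = 0.0875), or -1.58 (adjusted p = 0.690) without the 4 cells.

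Gfra3 was called lower at P3 than at E18.5 (adjusted p = 0.0284), with 48 counts over the E18.5 neurons and none at P3. Against a floor of 3 counts over the 2 P3 plates its level was at least 32.7-fold lower. The call rested on few counts and was lost without either P3 plate (adjusted p = 0.139 and 0.101), without E18.5 replicate 1 (0.111) and without the 4 Prdm12 neurons in the fit (0.0842). All of the 48 counts lay in neurons with a Sox10 count, and without such neurons Gfra3 was at 0 at both stages. The part of glial RNA in these counts was not tested.

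Ret, the shared signalling receptor, was found in few neurons at any stage. Its CPM in SGN-like cells was 30.9 and 7.32 at E14.5, 3.55 and 0.633 at E15.5, 4.17, 4.71 and 3.36 at E16.5, 0.949 at E17.5, 2.49 and 2.59 at E18.5, and 2.51 and 3.84 at P3. The E14.5 plates lay above the rest, and within them the level was highest in unspecialized-like neurons (48.8 and 16.3 CPM). The fall from E14.5 to E15.5 was -3.22 on the log2 scale and just missed the threshold (SE 0.84, adjusted p = 0.0512). It was called by DESeq2 (adjusted p = 0.0008), but without E14.5 replicate 1 the difference was -1.81 (adjusted p = 0.231), and without E15.5 replicate 1 it was -4.96 (adjusted p = 0.0349). Neurons with a Ret count made up 15.1% ± 7.39 at E14.5, 4.19% ± 1.05 at E15.5 and 13.98% ± 0.539 at P3 (SD, n = 2), and 15.3%, 4.36% and 11.2% after thinning.

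In neurons the share of cells with counts of both Ret and a co-receptor was set beside the product of the single shares. At E18.5, 23 of 28 and 20 of 29 neurons with a Ret count also had one of Gfra1, which is 7.74% and 6.64% of all neurons, beside 6.98% and 7.202% expected from the product of the single shares. At E16.5 the shares with Ret and Gfra1 were 8.81%, 8.94% and 5.80%, beside products of 9.66%, 9.53% and 4.54%. For Ret and Gfra2 they were 10.2%, 8.38% and 0%, beside 7.28%, 6.81% and 1.68%. At P3 the shares with Ret and Gfra1 were 3.99% and 2.40%, beside products of 4.09% and 4.57%, and those with Ret and Gfra4 were 12.8% (48 of 376) and 15 of 125 neurons, beside products of 12.8% in both. The shares lay on both sides of the products for Gfra1, and above them for Gfra2 in 2 of 3 E16.5 plates. Those with Ret and Gfra2 were 8.42% and 7.97% at E18.5, beside products of 7.17% and 7.65%. At P3 they were 9.84% and 9.60%, beside 9.59% and 8.81%. At E14.5 and E15.5 the shares with Ret and Gfra2 lay on both sides of the products, and in the E17.5 plate below. They are given as descriptions, with no test, and move with the depth of a cell.

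The ligands were near the detection limit in neurons. Gdnf reached at most 0.886 CPM in SGN-like cells and had no count in 4 of the 12 plates, and where it was seen 1 cell often held most of the counts. Nrtn ranged from 0 to 2.81 CPM, with a count in 2.17% of neurons at E14.5 and 23.0% at P3, or 2.17% and 8.84% after thinning. Neither ligand was called between neighbouring stages.

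Neurons, glia and mesenchyme were compared at E14.5 to E17.5, where 8 plates held all classes. A sum of a class does not tell fewer expressing cells from less RNA per cell. Between glia-like and SGN-like cells 54.9% of all genes were called, and 4 of the 7 members, which is near that background. Gfra1 was high in both: 498 and 423 CPM in glia-like cells at E14.5, 428 and 345 at E15.5, 283, 332 and 467 at E16.5, and 298 at E17.5. Glia-like cells lay above the SGN-like cells of the same plate in all 8 plates. The ranges over plates overlapped, and the log2 difference of 0.57 was not called (adjusted p = 0.271).

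Gfra2 and Gfra3 were higher in glia-like cells. Gfra2 was at 72.9 and 149 CPM (E14.5), 85.7 and 113 (E15.5), 53.9, 68.6 and 87.8 (E16.5) and 84.0 (E17.5), and it exceeded the SGN-like cells by 1.63 on the log2 scale (SE 0.56, adjusted p = 0.0183). Only E16.5 replicate 1 went the other way, with 53.9 CPM in glia-like and 59.1 in SGN-like cells. The call of Gfra2 was lost without any 1 of the 4 plates of E14.5 and E15.5 (adjusted p 0.0559 to 0.0782). Gfra3 fell with stage in glia-like cells, from 59.2 and 59.7 CPM at E14.5 through 34.5 and 31.9 at E15.5 and 3.67, 3.41 and 21.4 at E16.5 to 14.6 at E17.5. That trend was not tested. The level in glia-like cells was above that in SGN-like cells in all 8 plates. The log2 difference was 3.85 (SE 1.32, adjusted p = 0.0176) and grew to 5.09 (adjusted p = 0.0021) without the Prdm12 neurons, while leaving out E15.5 replicate 1 (adjusted p = 0.0547) or replicate 2 (0.0597) ended the call.

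Gfra3 was carried by a minority of glia-like cells, 18.7% ± 6.66 at E14.5 and 12.5% ± 1.68 at E15.5 (SD, n = 2). By cluster its level was 88.3 CPM in 1 cluster of E14.5 glia-like cells (26.7% of 116 cells) and 27.1 in the other, and it ranged from 10.6 to 87.8 CPM over the 4 clusters of E15.5. No member took part in building these clusters.

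Gfra4 was the member that stood lower in glia. Its CPM there was 2.72 and 1.16 at E14.5, 2.82 and 2.39 at E15.5, 11.3, 8.87 and 1.70 at E16.5, and 0.552 at E17.5, below the SGN-like cells of the same plate in all 8 plates. The log2 difference was -2.56 (SE 0.48, adjusted p = 0.00014). The highest glial values were those of E16.5 replicates 1 and 2, whose few glia-like cells carried SGN markers; with the other plate series alone the difference was -3.24, and that of Gfra2, Gfra3 and Gdnf was 2.34, 4.66 and 6.87, each called.

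Of the ligands, Gdnf was higher in glia than in neurons. Its CPM in glia-like cells was 3.09 and 18.1 at E14.5, 0.475 and 2.25 at E15.5, 3.03, 0 and 15.7 at E16.5, and 8.28 at E17.5. In 7 of 8 plates it was higher than in SGN-like cells, and the exception, E16.5 replicate 2, had 9 glia-like cells. The log2 difference was 5.06 (SE 1.24, adjusted p = 0.0018), or 8.22 (adjusted p = 0.00026) against neurons without a Sox10 count. The counts came from few cells: 28 of 227 glia-like cells in E16.5 replicate 3 and 3 of 241 in E15.5 replicate 1, where 1 cell held 89.3% of them. Ret was at 0 to 7.98 CPM in glia-like cells and did not pass the test against neurons (log2 difference -1.10, adjusted p = 0.394). Nrtn was at 0 to 3.03 CPM there (0.04, adjusted p = 0.968).

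OM-like cells had little Gfra1. The values were 49.5 and 36.5 CPM at E14.5, 26.5 and 13.8 at E15.5, 257, 219.7 and 33.0 at E16.5, and 64.3 at E17.5. The 2 high values were those of E16.5 replicates 1 and 2, the 5 and 10 cells that carried SGN markers, and only in those did the OM-like sum come near or above that of neurons. Gfra1 was the 1 member called between OM-like and SGN-like cells, at -1.86 on the log2 scale (SE 0.46, adjusted p = 0.0018), where 55.2% of all genes were called. Without those replicates the difference was -2.88 and stayed called. Neither Gfra2 (-0.22, adjusted p = 0.756) nor Gfra3 (-0.38, adjusted p = 0.831) passed the test.

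Against glia-like cells, 5 of the 7 members were called in OM-like cells, with 20.1% of all genes called. Gfra1 was lower by -2.42 (SE 0.46, adjusted p = 0.00076) and Gfra4 higher by 2.80 (SE 0.49, adjusted p = 0.00031) on the log2 scale. Gfra4 in OM-like cells was 26.1 and 15.02 CPM at E14.5, 13.002 and 35.2 at E15.5, 9.77, 32.9 and 15.997 at E16.5, and 24.4 at E17.5. It was above glia in every plate but E16.5 replicate 1 and close to the level in neurons (log2 difference 0.23, adjusted p = 0.683). Gfra2 (-1.86, adjusted p = 0.0179), Gfra3 (-4.23, adjusted p = 0.0369) and Gdnf (-3.84, adjusted p = 0.0299) were lower in OM-like than in glia-like cells. These 3 calls were fragile: Gfra2 lost its call without E14.5 replicate 2, E16.5 replicate 3 or either E15.5 plate (adjusted p 0.0508 to 0.0631). Gfra3 lost it without E17.5 or any plate of E14.5 or E15.5 (up to 0.120) and without the cells of highest counts (0.0518), although without E16.5 replicate 2 it was -7.01. Gdnf lost it without E16.5 replicate 1 or 3, E17.5 or either E15.5 plate (up to 0.0879). With the plate as a block Gdnf was at -3.70 (adjusted p = 0.0592). Markers of OM summed to 1375 to 1833 CPM in the glia-like cells of the 6 plates with over 20 of them, and the part of this in the differences was not tested.

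Nrtn was at 5.62 and 6.72 CPM in OM-like cells at E14.5, 4.99 and 1.49 at E15.5, 0.651, 3.83 and 6.51 at E16.5, and 1.60 at E17.5. It was above the neurons of the same plate in 7 of 8 plates, but the log2 difference of 1.43 was not called (adjusted p = 0.0984), while DESeq2 called it. Ret in OM-like cells was at or under 4.21 CPM except in E16.5 replicate 3 (11.3 CPM).

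**Figure D3:**
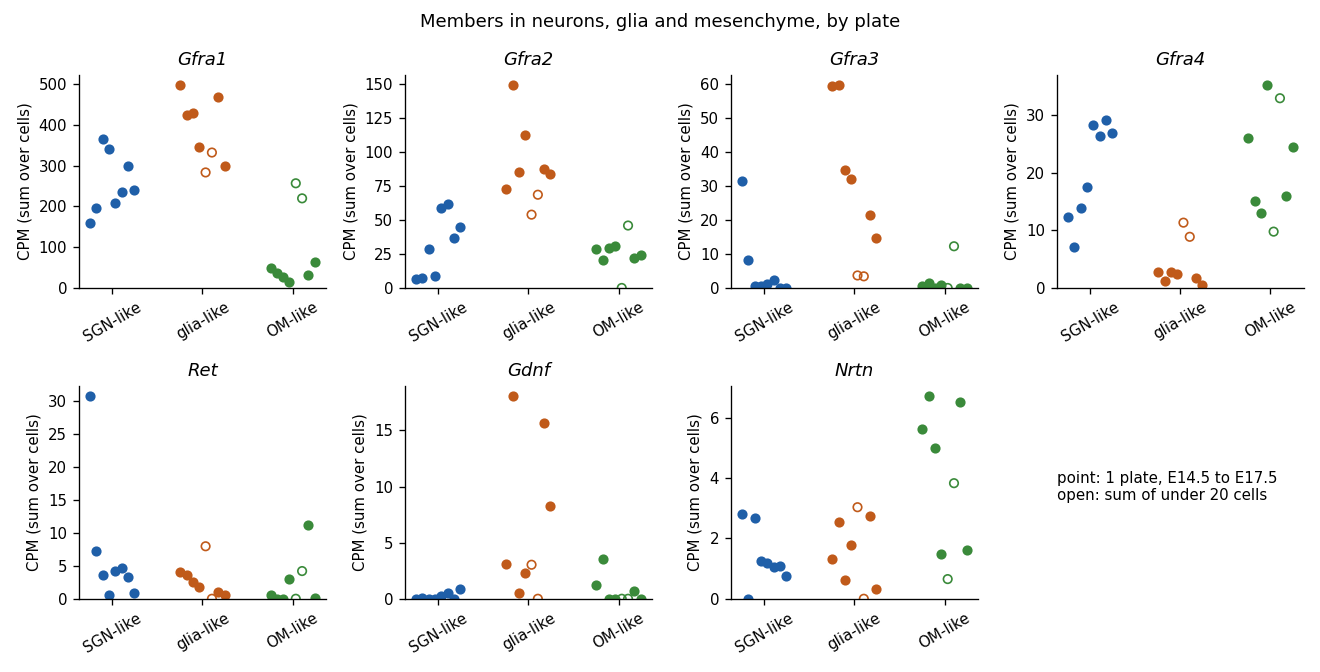
CPM of the members (vertical axis of each panel, from 0) in SGN-like, glia-like and OM-like cells (horizontal axis) of the 8 plates of E14.5 to E17.5, with 1 point per plate and class. Gfra1 is at 283 to 498 CPM in glia-like cells and under 65 CPM in OM-like cells, save for the sums of 5 and 10 cells at 257 and 219.7 CPM.

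At E18.5, 37 and 32 HC-like cells were found, and their summed levels of the co-receptors differed from those of neurons save for Gfra4. These sums mix clusters of HC-like cells that differed in Gfra3 and Gfra4, as given below. The study discarded vestibular hair cells from its hair cells. The HC-like cells here were not split by organ, so their levels may mix cochlear and vestibular cells. Gfra4 was at 30.2 and 28.7 CPM over all HC-like cells, beside 33.5 and 34.1 in neurons, Gfra1 at 18.98 and 18.1, and Gfra2 at only 0.596 and 0.699 CPM. Gfra3 was at 9.96 and 5.33 CPM, above the 0.369 and 0.109 CPM of the neurons. Of 6 members tested 5 were called, where 57.4% of all genes were: Gfra2 (log2 difference -6.95, adjusted p = 4.16e-05), Gfra1 (-3.02, adjusted p = 6.00e-05), Ret (-3.11, adjusted p = 0.0194), Gfra3 (4.98, SE 0.78, adjusted p = 0.0043) and Nrtn (1.56, adjusted p = 0.0453). Gfra4 differed by -0.24 (SE 0.13, adjusted p = 0.157), and Gdnf had no count in these cells. Nrtn, at 4.25 and 2.36 CPM, lost its call with the plate as a block (1.51, adjusted p = 0.121) and among neurons without a Sox10 count (1.54, adjusted p = 0.0993). E18.5 neurons without a Sox10 count had no Gfra3 count at all. SGN markers summed to 1273 and 1851 CPM in the HC-like cells, and 1 pair of plates gives no test with a plate left out.

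Gfra3 and Gfra4 were uneven among the HC-like cells, and whether the clusters follow cochlear and vestibular origin was not tested. Gfra3 was counted in 20 of 42 E18.5 cells of the cluster led by Chrna9, Chrna10 and Tecta, genes of the cholinergic receptor and the tectorial membrane (47.6%, exact 95% binomial interval 32.0% to 63.6%), at 12.3 CPM. In the cluster led by Ocm, Kcna10 and Cabp2 it was counted in 0 of 27 cells, which allows a share of up to 11.1% by a floor of 3 counts and up to 12.8% by the exact interval. Gfra4 was at 16.6 CPM in the former cluster, with its 5 cells of E17.5, and at 48.9 CPM in the latter. Intervals and floors here cover counting error only. HC-like cells of E15.5 to E17.5 numbered 4 to 8 per plate. In them Gfra3 had counts in 1 plate, from 1 of 8 cells (17.8 CPM, E15.5 replicate 1), where the HC markers summed to 1703 CPM. Gfra2 had counts in 1 plate, from 1 of 5 cells (1.96 CPM, E17.5).

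Among neurons, the study describes a branching from unspecialized cells to Ic on the one side and to an intermediate Ia/Ib/II state on the other. Along its pseudotime the study reports an upregulation of Gfra1 in the intermediate state. In the clusters here Gfra1 parted the Ic-like from the Ia/Ib/II-like cells. At E16.5 its CPM was 345, 389.7 and 453 in Ia/Ib/II-like cells, 448, 492.99 and 386 in unspecialized-like cells, and 35.1, 46.0 and 9.65 in Ic-like cells. The ranges of the Ic-like and Ia/Ib/II-like cells lay far apart, while those of the Ia/Ib/II-like and unspecialized-like cells overlapped. The log2 difference was -3.61 (SE 0.43, adjusted p = 0.0043), the only call among 6 members tested where 2.36% of all genes were called. Leaving out each plate gave -4.04 to -3.16, each called, and finer clustering (Leiden resolution 2) gave -2.16 (adjusted p = 0.0003). The numbers of cells were 109, 120 and 17 against 89, 100 and 12. A day earlier, the E15.5 Ic-like cells (17 and 19) were at 123 and 335 CPM.

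Gfra2 did not part them. At E16.5 it was at 46.8, 60.8 and 76.6 CPM in Ia/Ib/II-like and at 94.2, 73.1 and 7.72 in Ic-like cells, with a log2 difference of -0.02 (SE 0.64, adjusted p = 0.996). Within the Ic-like cells it was uneven. The cluster of 68 cells led by Nrxn3 and Rgs8 was at 171 CPM, with a count in 94.1% of cells, beside 30.6 and 28.6 CPM in the other 2 clusters. Unspecialized-like cells were at 11.2, 7.02 and 1.72 CPM. These cells had no Gfra2 count in either E15.5 plate, while their Gfra1 stood at 469.6 and 303 CPM. The cells still named unspecialized-like or Ia/Ib/II-like at E18.5 kept Gfra1 at 456 and 405 and at 256 and 283 CPM.

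At E18.5 and P3, II-like neurons, which contact outer hair cells, combined high Gfra1 with high Gfra2. Gfra1 was at 300.1 and 305 CPM in the 25 and 19 II-like cells of E18.5 and at 167 CPM in the 18 of P3 replicate 1, while type I-like neurons, which contact inner hair cells, were at 32.6 and 33.8 (E18.5) and 9.76 and 11.4 (P3). Gfra2 was at 184 and 171 CPM, and 82.5 at P3, beside 64.0 and 48.2 and, at P3, 27.2 and 25.1 CPM in type I-like cells. No II-like sum overlapped a type I-like one in either gene. The 4 II-like cells of P3 replicate 2 were too few for the test (218 CPM of Gfra1 and 32.4 of Gfra2).

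Over both stages the log2 differences were 3.42 for Gfra1 (SE 0.16, adjusted p = 2.48e-05) and 1.57 for Gfra2 (SE 0.12, adjusted p = 0.00015), 2 calls among 6 members tested where 15.3% of all genes were called. With the plate as a block 1170 genes were called in place of 2291, and both members kept their call, as they did with Ia or Ia/Ib/II-like cells counted as type I-like (2.95 and 1.34). Every one of the 44 II-like cells of E18.5 had counts of both genes, at 100000 counts per cell too. The other members gave -0.68 (Ret, adjusted p = 0.423), 0.02 (Gfra4, adjusted p = 0.939), -0.94 (Nrtn, adjusted p = 0.439) and -1.12 (Gdnf, adjusted p = 0.587). The Gfra1 difference was 3.11 at E18.5 and 3.86 at P3, and the change of 0.74 between stages missed the threshold (adjusted p = 0.0536) where 6.08% of all genes passed. It passed with the plate as a block (0.77, adjusted p = 0.0095) and with Ia or Ia/Ib/II-like cells among the type I-like cells (1.56, adjusted p = 0.0080). With a plate left out the change was 0.73 to 0.77 and passed in none of those fits. Its P3 side rested on 1 II-like sum of 18 cells, so no spread between P3 plates of II-like cells entered.

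**Figure D4:**
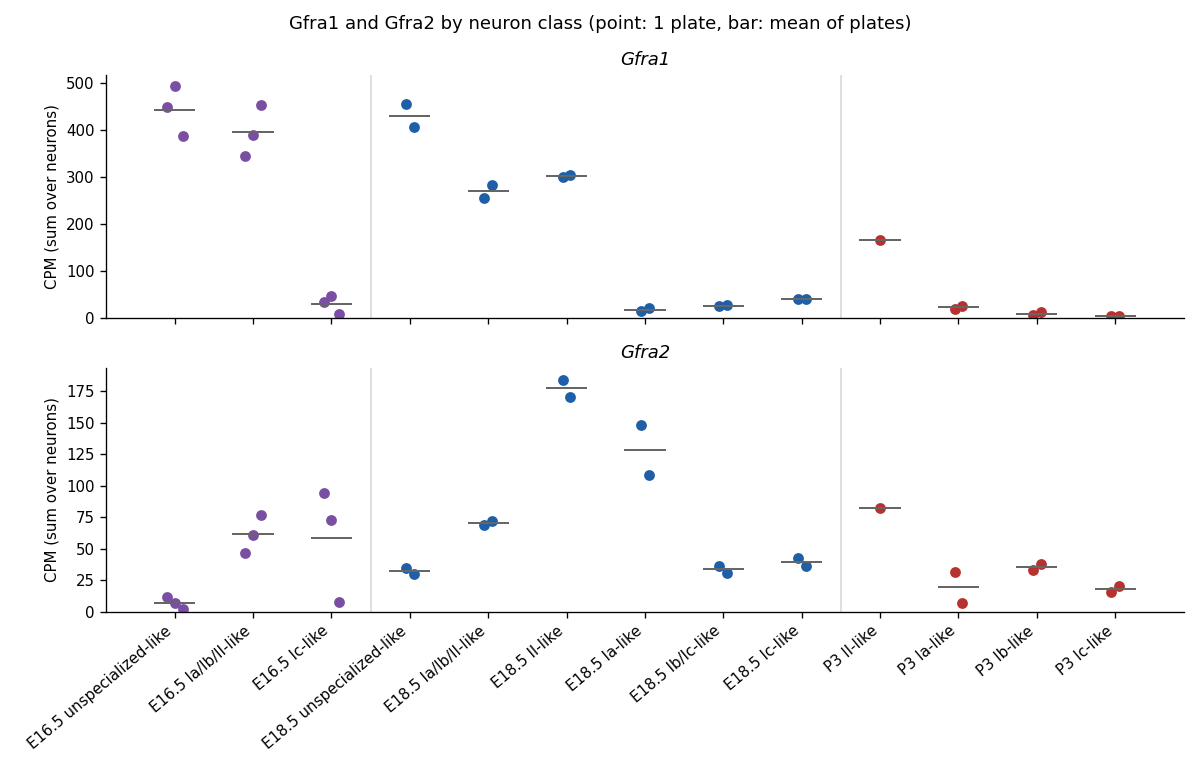
CPM of Gfra1 and Gfra2 (vertical axis, from 0) in each neuron class and stage (horizontal axis), where a point is 1 plate and a bar the mean of the plates. II-like cells of E18.5 are at 300.1 and 305 CPM of Gfra1 and Ic-like cells at 41.5 and 39.9 CPM.

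Gfra1 was low in the named type I classes, but its order among them at E18.5 turned on which cells were taken as Ia. At E18.5, Ia-like cells were at 15.1 and 21.001 CPM of Gfra1, Ib/Ic-like at 25.1 and 28.1, and Ic-like at 41.5 and 39.9. At P3 the order was reversed, with Ia-like at 19.6 and 25.8, Ib-like at 5.45 and 13.4, and Ic-like at 4.78 and 3.94 CPM. Taken over both stages, Ib-like and Ic-like cells together showed no difference from Ia-like cells in Gfra1 past the threshold (log2 difference -0.40, SE 0.52, adjusted p = 0.789). By stage the difference was 1.00 at E18.5 and -1.75 at P3. The change between stages, -2.75 (SE 0.41, adjusted p = 0.0242), was called where 0.503% of all genes were. Without E18.5 replicate 1 it was -2.54 (adjusted p = 0.557) and without replicate 2 it was -3.06 (adjusted p = 0.381); in neither fit was any gene called. The Ia or Ia/Ib/II-like cells of E18.5 (40 and 59), left out above, were at 113 and 132.9 CPM of Gfra1 and at 127 and 107 CPM of Gfra2. With them counted as Ia-like, an alternative added after the data were seen, the Gfra1 difference was -1.24 at E18.5 and -1.74 at P3, the change between stages was -0.50 and not called (adjusted p = 0.796), and the difference over both stages was called (-1.49, SE 0.19, adjusted p = 0.0018).

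Gfra2 was highest among the named type I classes in the Ia-like cells of E18.5, at 148 and 109 CPM, beside 36.5 and 30.8 in Ib/Ic-like and 42.8 and 35.8 in Ic-like cells. At P3 it was at 31.5 and 6.92 CPM in Ia-like, 32.6 and 38.0 in Ib-like, and 15.7 and 20.6 in Ic-like cells. The difference between the joined Ib and Ic classes and Ia was -1.79 at E18.5 and 0.46 at P3 on the log2 scale, where the P3 value was 2.09 without P3 replicate 1 and -0.32 without replicate 2, and the change of 2.25 was not called (SE 0.71, adjusted p = 0.324). The 2 Ia-like sums of P3 (117 and 21 cells) set its spread: without P3 replicate 1 the change was 3.86 (adjusted p = 0.0010) and without replicate 2 it was 1.45 (adjusted p = 0.0775). Over both stages edgeR called 0 of 5 members between these classes, where 5.37% of all genes were called, with 1 at an unadjusted p under 0.05. That 1 was Ret (log2 difference -1.49, SE 0.45, adjusted p = 0.102), which DESeq2 called. Ret was at 9.22 and 7.36 CPM in Ia-like cells of E18.5 and at 0.116 to 5.09 CPM in the Ic-like and Ib/Ic-like cells of that stage.

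Between Ic-like and Ib-like cells at P3 edgeR called 0 of 6 members and 0.189% of all genes, with 1 member, Gfra2, at an unadjusted p under 0.05. Gfra2 was lower in Ic-like cells in both plates, by -0.96 on the log2 scale (SE 0.22, adjusted p = 0.332). It was called by DESeq2 and with the plate as a block (-0.98, adjusted p = 0.0189), under which 259 genes were called in place of 28. Gfra1 differed by -1.12 (SE 0.47, adjusted p = 0.861). Gfra4 at P3 was at 64.3 and 63.4 CPM in Ic-like, 57.4 and 58.5 in Ib-like, 44.2 and 39.5 in Ia-like, and 75.0 CPM in II-like cells of replicate 1, and it was not called in any comparison of neuron classes.

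The other genes of the pathway were a list of 48: 3 ligands, 5 receptors, 2 sorting receptors, 22 adaptors and kinases, 11 inhibitors or turnover proteins, and 5 target genes. From E18.5 to P3, 17 of 48 (35.4%) changed, 2 up and 15 down, where 24.6% of all genes were called, with a median log2 difference of -0.52 beside -0.08 over all genes. The largest were falls of Etv4 (-2.85), a transcription factor induced by RET signalling in other tissues, Cbl (-2.22), a ubiquitin ligase that acts on receptor kinases, and Dok4 (-1.75), an adaptor of RET. Earlier steps moved fewer. From E14.5 to E15.5, 4 rose and 2 fell (12.5% of the list, 5.96% of all genes), led by Rap1gap (1.19), Stat3 (-0.88) and Cbl (0.66). From E15.5 to E16.5, 2 rose (Egr1, 1.01, and Rap1gap, 0.83) and none fell (4.17%, beside 1.82%). From E16.5 to E18.5, 2 rose and 6 fell (16.7%, beside 4.77%), led by Vgf (-1.44), Egr1 (1.28) and Gas1 (-1.17), which encodes a GFRα-related protein.

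Among cell classes, 28 of the 44 pathway genes tested differed between glia-like and SGN-like cells, 14 in each direction (63.6%, near the 54.9% of all genes called), led by the neuropeptide precursor gene Vgf (-6.80), the adaptor gene Grb10 (5.12) and the receptor gene Met (4.22). In OM-like cells 33 of 44 differed from neurons (18 higher, 15 lower; 75.0%, beside 55.2% of all genes), led by Vgf (-7.09), Grb10 (4.87) and the sorting receptor gene Sorl1 (3.88). OM-like cells differed from glia-like cells in 19 of 44 (12 higher, 7 lower; 43.2%, beside 20.1%), led by Sorl1 (4.80), Etv1 (2.77) and Spry1 (2.73). HC-like cells of E18.5 differed from neurons in 33 of 46 (14 higher, 19 lower; 71.7%, beside 57.4%). The first of these was Artn, which encodes the GFRα3 ligand artemin (6.26, SE 0.33, adjusted p = 0.00013), followed by Vgf (-5.87) and Grb7 (4.76).

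Among neurons, 16 of 46 pathway genes differed between II-like and type I-like cells, 13 higher and 3 lower (34.8%, beside 15.3% of all genes), led by Grb7 (-4.97), Etv4 (3.97) and Cblb (1.82), with a median of 0.42 beside -0.04 over all genes. Ic-like cells of E16.5 differed from Ia/Ib/II-like cells in 5 of 44 (3 higher, 2 lower; 11.4%, beside 2.36%), led by the adaptor gene Dok5 (-1.50), Gas1 (-1.42) and the heparan sulfate proteoglycan gene Sdc3 (1.09). The joined Ib and Ic classes differed from Ia-like cells in 3 of 44 (6.82%, near the 5.37% of all genes), Dok5 (-4.18), Gas1 (-0.51) and Shc2 (0.46). Ic-like and Ib-like cells differed in 0 of 45 by edgeR, with 5 at an unadjusted p under 0.05.

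Across 35 class-by-plate sums, the genes whose log2(CPM + 1) ran most like that of Gfra1 among 15350 genes were Arhgef10l (Pearson r = 0.864), Nfil3 (0.862) and Dst (0.854). For Gfra2 they were Gabrb2 (0.927), Cdh10 (0.869) and Haus8 (0.857), and for Gfra4 Trim16 (0.836), Rgs6 (0.830) and Susd2 (0.820). For Gfra3 they were Plekho1 (0.784), Gpr17 (0.755) and Pdlim1 (0.753). The members with few counts had looser matches: Ret with Insm2 (0.686), 4933430I17Rik (0.662) and Ccdc150 (0.659), Gdnf with Gp5 (0.776), Dlx1as (0.770) and Kcnq5 (0.761), and Nrtn with Bik (0.763), Tulp1 (0.756) and Noxo1 (0.740). Between members the closest pair was Gfra1 and Gfra2 (0.584), and Gfra1 and Nrtn ran most against each other (-0.539). Sums of a plate share its library preparation and depth, so these are descriptions of 35 sums.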

How the data were processed

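The deposited table holds whole-number read counts of 24489 genes and 92 ERCC spikes. Per the study's methods, the authors demultiplexed the reads, mapped them to mm10 with the spikes by STAR in 2 passes and kept uniquely mapped reads. The study's Reporting Summary names featureCounts for the read counting. The strand setting of counting is not given in the sources used here. A plate of 384 wells matched no sample and was not used.

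Cells with over 1000 features (genes or spikes) with a count and under 5% spike counts were kept. Within each stage (E17.5 and E18.5 together) 2000 variable genes, 30 components and 30 neighbours gave Leiden clusters (resolution 1, Scanpy 1.11.5, leidenalg 0.10.2, Python 3.11.15), without the 7 members, the 48 pathway genes and 1371 glia-enriched genes. Neurons were then clustered again, also without genes that followed the glia or OM markers and with each plate centred on the common mean. Names came from marker lists, those of the neuron classes chosen by the study on these cells. The naming rule was revised after cluster tables were seen, and members and lists were chosen with earlier results of these data known. No doublet caller was run. The 5% of cells with the highest counts were left out as an alternative.

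Counts were summed per class and plate (at least 5 cells, 3 for HC-like cells) and tested with edgeR 4.0.16 (quasi-likelihood, TMM, filterByExpr, R 4.3.3) with Benjamini-Hochberg adjustment over all genes tested; called means adjusted p under 0.05. The stages formed 1 fit, the classes of E14.5 to E17.5 another with stage as a covariate. DESeq2 1.42.0 and other alternatives are in the closing section. Members are all named. Of the pathway list, the 3 called genes with the largest changes are named, and of like patterns the 3 with the highest r. Plates are the replicates. Each held pooled animals, and where plates of a stage may share them p-values measure a spread that may be technical. Classes of a plate come from the same animals: deviations of sums of a plate correlated at -0.65 to 0.45 between classes, at 0.14 to 0.22 at E16.5, at -0.59 to -0.34 for II-like and type I-like cells, at -0.34 to 0.16 for Ia-like and the joined Ib and Ic classes, and at 0.15 for Ib-like and Ic-like cells of P3. Gene positions are from GENCODE vM21 (GRCm38, the same assembly as mm10).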

Additional observations from a re-analysis of the deposited data

Results flagged for a closer look

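In 8 of 41 groups of 4 to 10 plates checked, 1 plate lay apart from the others by Dixon's criterion at the 95% level. Its error rate of about 5% holds for normal values of 1 population. The groups pooled plates of several stages and included levels near 0, so the 8 cannot be set against that rate. In SGN-like cells E14.5 replicate 1 was apart in Gfra3 (31.5 CPM, next 8.33) and in Ret (30.9 CPM, next 7.32); the groups were the 8 plates of E14.5 to E17.5. In OM-like cells the plates apart were E16.5 replicate 2 in Gfra3 (12.2 CPM, next 1.46), E16.5 replicate 3 in Ret (11.3 CPM, next 4.21) and E14.5 replicate 2 in Gdnf (3.56 CPM, next 1.21). Over the 4 plates of E18.5 and P3, E18.5 replicate 2 was apart in Gfra3 of Ia-like cells (0.545 CPM, others 0) and of type I-like cells (0.236 CPM, next 0.0229). P3 replicate 1 was apart in Nrtn of Ia-like cells (1.62 CPM, next 0.604).

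The Gfra1 difference between the joined Ib and Ic classes and Ia-like cells changed between E18.5 and P3 by -2.75 on the log2 scale, a difference that the interaction test called (adjusted p = 0.0242) and that lost its call without either E18.5 plate (adjusted p = 0.557 and 0.381). With the Ia or Ia/Ib/II-like cells counted as Ia-like the change was -0.50 (adjusted p = 0.796).

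Cells of clusters that stayed unnamed entered no comparison. In a cluster of 71 cells of the E17.5 plate Gfra2 was at 91.2 CPM, above the 84.0 CPM of the glia-like cells of that plate, the next highest class. Gdnf was at 0.605 and 0.631 CPM in a cluster of 31 and 33 cells in the E18.5 plates, above the 0.185 and 0.0933 CPM of the SGN-like cells there.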

How the results depend on the processing

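The 30 differences between groups examined here were called, or had an absolute log2 difference of at least 1 at an unadjusted p under 0.05. None reversed its direction, but differences chosen by this rule could hardly do so. Of the 23 called, 175 of 181 values under alternatives of tool, filter, clustering, cells or plates kept their call, as did 122 values with 1 plate left out, while 29 lost it; the plates that ended a call are named beside each result. The Gfra1 change between stages (joined Ib and Ic classes against Ia) went from -2.75 to -0.50 and lost its call with the Ia or Ia/Ib/II-like cells counted as Ia-like. The E18.5 value of Gfra1 in that comparison reversed with the same naming, from 1.00 to -1.24. The P3 value of Gfra2 there changed sign with a P3 plate left out. Of 7 differences examined that were not called, 18 of 58 alternative values and 9 of 76 with 1 plate left out passed the threshold. The plate as a replicate block ended the calls of Gdnf (OM-like against glia-like) and Nrtn (HC-like against SGN-like), gave one to Gfra2 (Ic-like against Ib-like) and to the change between stages of Gfra1 (II-like against type I-like), and changed no other call of a member; it called 1170 genes for II-like against type I-like cells in place of 2291 and 259 for Ic-like against Ib-like in place of 28. The cause was not tested for any of these.

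Counts of genes moved more. DESeq2 called 2520 genes between E15.5 and E14.5 in place of 1059, 1409 between E16.5 and E15.5 in place of 324 (884 higher and 525 lower, against 248 and 76), 1891 between E18.5 and E16.5 in place of 846, 914 for Ic-like against intermediate cells (Ia/Ib/II-like) in place of 336, 1312 for the joined Ib and Ic classes against Ia in place of 780, and 239 for Ic-like against Ib-like. With no filter on low counts the last 2 gave 1328 and 109, and with the highest-count cells left out the last gave 12. Without neurons holding a Sox10 count, the stage steps gave 642, 164 and 478, the joined Ib and Ic classes 210, and Ic-like against Ib-like 0 by edgeR, with 460 at an unadjusted p under 0.05. Leaving out the Prdm12 neurons, other plate series or P3, the naming of Ia-like cells, and the interactions of class and stage were chosen after seeing the data. With plates of 1 plate series E15.5 against E14.5 gave 273 and E16.5 against E15.5 gave 0 by edgeR, with 853 genes at an unadjusted p under 0.05; with P3 left out the latter gave 188. Leaving out a plate gave 564 to 1677, 78 to 1158, 86 to 1250 and 2115 to 5174 genes for the stage steps in order. The ranges were 66 to 2123 for Ic-like against intermediate cells, 846 to 2007 for II-like against type I-like, and 307 to 728 for the joined classes against Ia-like cells.

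No value was obtained with a plate left out for Ic-like against Ib-like and HC-like against SGN-like cells (2 plates each), nor without Sox10-positive neurons for II-like against type I-like cells, nor where both groups were at 0 (3 cases of Gdnf and Gfra3). DESeq2 gave no adjusted p for Gfra3 in the comparisons of neurons, glia and mesenchyme. Genes of under a few CPM, which include Gdnf, Nrtn and Ret in neurons, rest on few cells, and a difference there was not detectable unless large.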

Other observations

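The E17.5 plate had too few cells per neuron class for a comparison. Its Ia-like cells (5) were at 117 CPM of Gfra1 and 176 of Gfra2, its Ic-like cells (19) at 105 and 2.28, its unspecialized-like cells (7) at 327 and 45.2, and its Ia/Ib/II-like cells (7) at 345 and 27.5 CPM.

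Glia-like cells of E16.5 differed by cluster in Gdnf, which was at 26.1 CPM in a cluster of 132 cells, 15.2% of which had a count, and at 2.17 CPM in a cluster of 122 cells with a count in 8.20%. At E15.5 the 4 clusters of glia-like cells ranged from 0 to 3.06 CPM of Gdnf. These are values of clusters, with no test.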
